A study of Mus musculus with 11 samples.

Results

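The cells sequenced were CD8+ T cells of the mouse spleen that carried CD44, Ly49 and CD122 (CD8+ Tregs), and the genes described here are the 10 cytokine receptor genes Il2rb, Il2rg, Il2ra, Il15ra, Il7r, Il21r, Il12rb1, Il12rb2, Il18r1 and Il18rap. The members were chosen by name, as the rows of the count table that carry these 10 symbols among its 54532 genes, and all 10 passed the filter on low counts that left 13129 genes for testing. CD122 is the product of Il2rb, so the sort itself selected for cells with Il2rb. The groups were wild-type young mice of 2 to 3 months (3 males and 3 females) and wild-type middle-aged mice of 10 to 12 months (2 males and 3 females), and the labels call the second group old. No mouse was treated, and the study asked what changes in these cells between the ages. The study describes the libraries as biologically independent replicates, and the labels do not say how many mice went into each.

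Receptors of this kind, apart from that of IL-18, pass the signal of a cytokine from outside the cell to Janus kinases and STAT proteins inside it. The IL-2 and IL-15 receptors share the beta chain (Il2rb) and the common gamma chain (Il2rg), and each has an alpha chain of its own (Il2ra, Il15ra). The gamma chain also completes the IL-7 and IL-21 receptors, whose private chains are Il7r and Il21r. The IL-12 receptor is built of Il12rb1 and Il12rb2, and the IL-18 receptor of the binding chain Il18r1 and the accessory chain Il18rap, which belong to the IL-1 receptor family and signal through Myd88. IL-15 is known for keeping CD122+ memory-like CD8+ T cells alive, and IL-12 with IL-18 for making such cells release interferon gamma without antigen.

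At the GRCm38 coordinates of the file, both pairs of related genes lie side by side. Il2ra (chr2:11642807-11693193) and Il15ra (chr2:11705290-11734317) are both on the plus strand, 12.1 kb apart, and Il18r1 (chr1:40465552-40500854) and Il18rap (chr1:40515362-40551705) are both on the plus strand, 14.5 kb apart. Il15ra and Il18r1 had the smallest p-values by age of the 10 members, so the 250 bases before their first RefSeq transcript start (GRCm38.p6, plus strand, 5′ to 3′) are shown here. The window of Il15ra is chr2:11705043-11705292 and that of Il18r1 is chr1:40465302-40465551, and capitals mark a match to CCGGAA, the core of an ETS factor site.
Il15ra: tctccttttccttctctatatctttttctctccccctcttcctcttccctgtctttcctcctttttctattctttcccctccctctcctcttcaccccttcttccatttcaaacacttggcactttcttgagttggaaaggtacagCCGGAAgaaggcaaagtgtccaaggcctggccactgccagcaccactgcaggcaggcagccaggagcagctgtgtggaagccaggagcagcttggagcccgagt
Il18r1: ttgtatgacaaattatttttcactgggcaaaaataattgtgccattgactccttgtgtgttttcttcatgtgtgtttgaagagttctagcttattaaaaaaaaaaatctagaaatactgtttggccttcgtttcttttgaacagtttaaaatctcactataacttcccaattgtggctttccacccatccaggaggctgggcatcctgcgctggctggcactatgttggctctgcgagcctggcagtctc
These letters were searched on both strands. The Il15ra window held CCGGAA, which begins 104 bases before the start, and among the other members the Il2rg window held it 17 bases before the start, against 12.0% of the 32851 promoter windows in the RefSeq table. TTCNNNGAA, the palindrome that STAT dimers read, was in 7.02% of windows. Among the members it was found in the windows of Il7r and Il12rb2 and in that of a later start of Il18r1, and in neither sequence printed here. GGTGTGA, the core of a T-box site, was in 3.33% of windows and in that of no member. The table held 8 of the 10 members, in 11 windows. A match describes letters only and none of these windows was measured in the cells.

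Per library, 6135736 to 24394532 reads were counted on genes, and young male 1 and young female 1 were the 2 libraries under 10000000. The Cd8a level was 703 to 940 CPM (counts scaled to library size with TMM factors) in young and 642 to 1015 CPM in middle-aged libraries, and the summed level of 8 CD8 T cell genes was 4770 to 10842 CPM over all libraries. Each library has a replicate number from 1 to 3, which the labels tie to no day or batch. Between the 3 numbers 3452 of 13129 genes differed at an adjusted p under 0.05 (edgeR quasi-likelihood F test, 26.3%), so values of the members are also given by number. Middle-aged female 2 had 2705 CPM in the sum of 10 myeloid genes, against 52.4 to 341 CPM in the other 10 libraries.

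Levels are compared between genes only per kb of the gene length in the file. On this scale the beta chain gene Il2rb was the highest member on average, with a mean level of 473 ± 143 CPM per kb (SD, n = 11), followed by the gamma chain gene Il2rg with 407 ± 208. Il2rb was above Il2rg in 8 of 11 libraries, so the order of these neighbours did not hold beyond their spread. Il21r (105 ± 34.9) and Il7r (96.3 ± 22.4 CPM per kb) came next, both below Il2rg in every library and in either order between themselves, with Il21r above Il7r in 7 of 11. Below them stood the accessory chain gene Il18rap (20.2 ± 5.38) and Il18r1 (13.5 ± 3.95 CPM per kb), with Il18rap higher in 10 of 11 libraries. Il15ra (5.60 ± 2.07) and Il12rb1 (5.55 ± 2.77 CPM per kb) lay together, with Il15ra higher in 4 of 11 libraries. Il12rb2 was at 2.26 ± 1.05 CPM per kb, below Il12rb1 in 10 of 11 libraries. Il2ra, the gene of the alpha chain that makes the IL-2 receptor one of high affinity, was the lowest member at 0.254 ± 0.182 CPM per kb and was below Il12rb2 in every library.

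**Figure D1:**
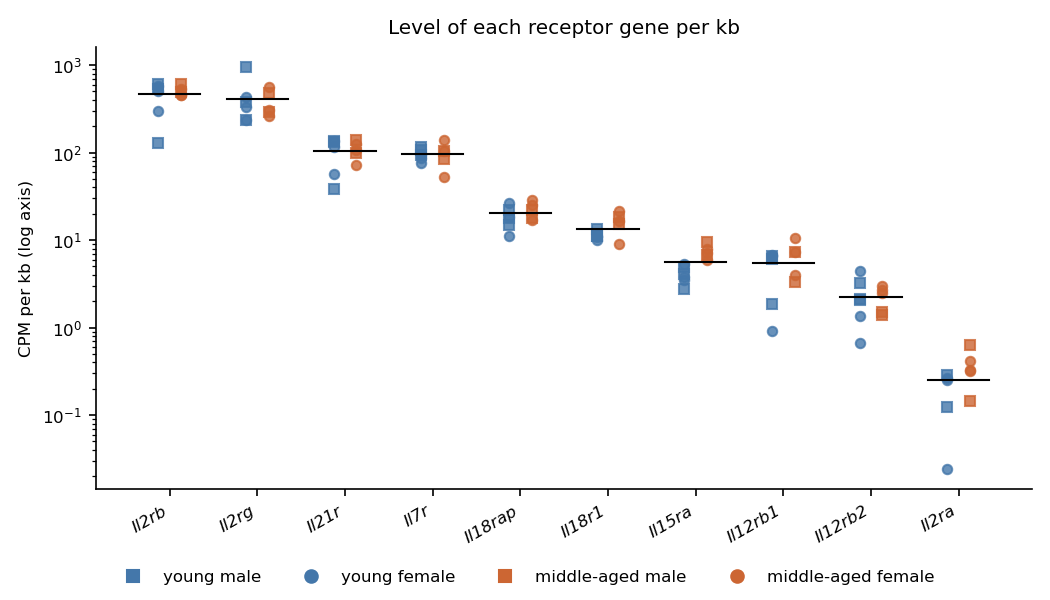
Level of each receptor gene in CPM per kb (log axis) in the 11 libraries, coloured by age and shaped by sex, with the mean over all libraries as a line. Il2rb and Il2rg sit highest at means of 473 and 407, and Il2ra lowest at 0.254, where young male 1 had 0 counts and is not drawn.

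Between the ages none of the 10 receptor genes passed an adjusted p of 0.05 (edgeR quasi-likelihood test with sex in the model, Benjamini-Hochberg adjustment), against 3 of 13129 genes in all (0.0229%). At an unadjusted p under 0.05, Il15ra and Il18r1 were higher in middle-aged mice and no member was lower, against 2.00% of all genes higher and 0.990% lower. The fitted log2 fold change was above 0 for 8 of 10 members, beside 50.4% of all genes tested. The median was 0.22 over the members, beside 0.00278 over all genes tested. The members were chosen with earlier results of these data known, and they share the same libraries. These counts are therefore a description and not an independent test. In the exact permutation test of the age labels (2-sided, on mean log2 CPM), Il15ra and Il18r1 again had a p under 0.05, against 4.81% of all genes, and the smallest p this design allows is 0.00216. In the 9 libraries with over 10000000 counts, Il15ra alone had an unadjusted p under 0.05, beside 3.37% of genes higher, and 6 of 10 members had a fold change above 0. The median log2 fold change of the members was 0.029 there, beside -0.0038 over all genes. In the 7 libraries not numbered 1 it was 0.082, beside 0.0083 over all genes.

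**Figure D2:**
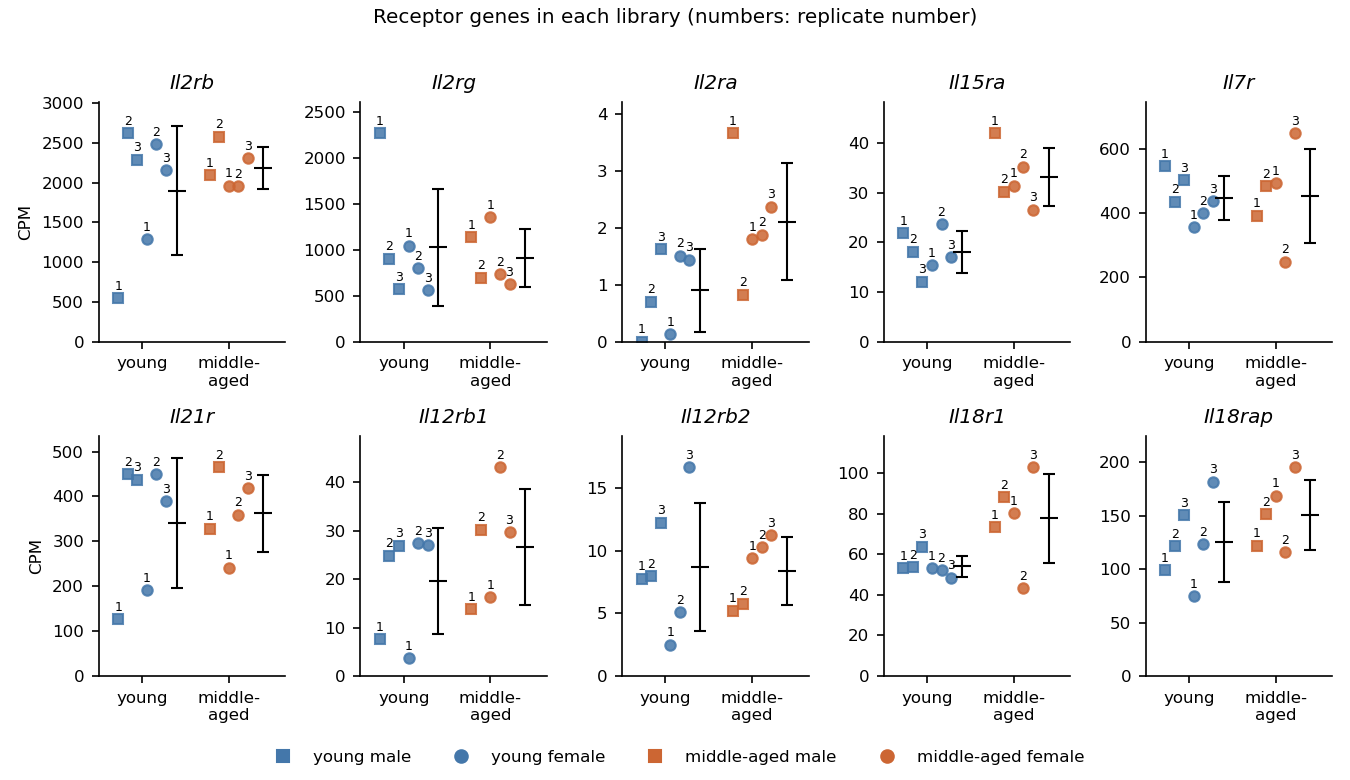
CPM of each receptor gene in every library (linear axes from 0), with the replicate number above each point and the mean ± SD of each age group in black. The middle-aged libraries of Il15ra, at 26.6 to 42.0 CPM, sit above all young libraries, at 12.1 to 23.7 CPM, while the groups overlap for the other 9 genes.

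Il15ra encodes the chain that binds IL-15 with high affinity and presents it to cells that carry the beta and gamma chains. In young libraries it ranged from 12.1 CPM through a median of 17.6 to 23.7 CPM. In middle-aged males it was at 42.0 and 30.2 CPM, and in middle-aged females at 31.4, 35.2 and 26.6 CPM. All 5 middle-aged libraries were above all 6 young ones, a separation that 1.01% of all genes showed in this direction and 0.297% in the other. The means were 18.0 ± 4.22 CPM (SD, n = 6) and 33.1 ± 5.86 CPM (SD, n = 5), a ratio of 1.84. The fitted log2 fold change was 0.88 ± 0.26 (SE), with a 95% interval of 0.32 to 1.44, an unadjusted p of 0.00522 and an adjusted p of 0.643 (edgeR). The permutation p was 0.00433 (exact).

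The difference in Il15ra had the same direction within each replicate number and each sex. These subsets are parts of the libraries in which Il15ra had the smallest p of the members. Among libraries of the same number the mean log2 CPM was higher in middle-aged mice by 0.98 (number 1), 0.65 (number 2) and 0.88 (number 3). The fitted log2 fold change was 1.06 in males alone (unadjusted p = 0.0579) and 0.74 in females alone (unadjusted p = 0.0763, edgeR). The interaction of age with sex had a p of 0.554. In the 9 libraries with over 10000000 counts the log2 fold change was 0.89 with an unadjusted p of 0.00437 (edgeR, exact permutation p = 0.00794). In the 7 libraries not numbered 1 it was 0.76 with an unadjusted p of 0.0136 (edgeR, exact permutation p = 0.0571).

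Il18r1 encodes the chain that binds IL-18. Young libraries lay close together, from 48.5 CPM through a median of 53.3 to 63.9 CPM. Middle-aged males were at 73.5 and 88.4 CPM, and middle-aged females at 80.5, 43.4 and 103 CPM. Of the middle-aged libraries 4 were thus above every young library and female 2, the library with the high myeloid sum, was below every young one. The means were 54.2 ± 5.14 CPM (SD, n = 6) and 77.8 ± 22.1 CPM (SD, n = 5), with a log2 fold change of 0.54 ± 0.23 (SE), a 95% interval of 0.04 to 1.04, an unadjusted p of 0.0379 and an adjusted p that rounds to 1.00 (edgeR). The permutation p was 0.0498 (exact). Without middle-aged female 2 the log2 fold change was 0.68 with an unadjusted p of 0.00711, and without middle-aged female 3 it was 0.39 with an unadjusted p of 0.116. The p was above 0.05 in 7 of the 11 fits that left out a library, and it was 0.0647 in the 9 libraries with over 10000000 counts.

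Its partner Il18rap, which the receptor needs to signal, overlapped between the ages. It ranged from 74.8 through 122 to 182 CPM in young libraries, and in middle-aged libraries it was at 122 and 151 CPM in males and at 169, 116 and 195 CPM in females. The log2 fold change was 0.25 with a 95% interval of -0.31 to 0.81. The log2 ratio of Il18rap to Il18r1 was 1.16 ± 0.47 in young and 0.98 ± 0.28 in middle-aged libraries (SD), a difference of -0.17 with an exact permutation p of 0.504. Over the 11 libraries Il18r1 and Il18rap had a Pearson r of 0.54 and a Spearman rho of 0.48, a description only, since the points share libraries and replicate numbers.

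For Il2rb, the gene of the marker used in the sort, the ages overlapped. It ranged from 552 CPM (young male 1) through a median of 2222 to 2625 CPM in young libraries, and was at 2094 and 2579 CPM in middle-aged males and 1961, 1956 and 2306 CPM in middle-aged females. Young male 1 and young female 1 (1293 CPM) were below all other libraries, and these are the 2 libraries with the fewest counts. The log2 fold change was 0.20 with a 95% interval of -0.56 to 0.96, and it was -0.13 in the 9 libraries with over 10000000 counts. Among libraries numbered 1 the middle-aged mean log2 CPM was higher by 1.26, while the difference was -0.18 among those numbered 2 and 0.05 among those numbered 3.

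Il2rg, the common gamma chain gene, was at 561 through 852 to 2269 CPM in young libraries, and at 1134 and 698 CPM in middle-aged males and 1353, 735 and 624 CPM in middle-aged females. The highest value was that of young male 1, the library with the lowest Il2rb. The log2 fold change was -0.10 with a 95% interval of -0.94 to 0.74, and 0.35 in the 9 libraries with over 10000000 counts. The log2 ratio of Il2rb to Il2rg was 0.90 ± 1.56 in young and 1.32 ± 0.60 in middle-aged libraries (SD), a difference of 0.42 with an exact permutation p of 0.706.

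Il2ra was near the limit of detection, with 0 to 38 counts in young and 14 to 77 counts in middle-aged libraries. Young male 1 had 0 counts, which allows up to 0.543 CPM (3 counts, counting error only), and young female 1 had 1 count. The young libraries ranged from 0 through 1.07 to 1.62 CPM, the middle-aged males were at 3.66 and 0.826 CPM and the females at 1.80, 1.88 and 2.37 CPM, so that 4 of 5 middle-aged libraries were above every young one. The log2 fold change was 1.17 with a 95% interval of -0.62 to 2.95. It was 0.66 in the 9 libraries with over 10000000 counts and 0.15 in the 7 libraries not numbered 1. The log2 ratio of Il15ra to its neighbour Il2ra did not differ beyond the spread, at 4.71 ± 1.79 in young and 4.02 ± 0.64 in middle-aged libraries (SD, exact permutation p = 0.468).

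Il7r, the IL-7 receptor chain that marks naive and long-lived memory T cells, was at 356 through 436 to 545 CPM in young libraries. The middle-aged libraries spread on both sides, at 392 and 482 CPM in males and 493, 248.7 and 648 CPM in females, with female 2 the lowest and female 3 the highest of all 11. The log2 fold change was 0.05 with a 95% interval of -0.50 to 0.59. The log2 ratio of Il7r to Il2rb was -1.93 ± 0.98 in young and -2.33 ± 0.45 in middle-aged libraries (SD, exact permutation p = 0.548). Il21r, the IL-21 receptor chain, was at 127 through 413 to 450 CPM in young libraries, and at 328 and 465 CPM in middle-aged males and 241, 359 and 419 CPM in females. Its log2 fold change was 0.09 with a 95% interval of -0.66 to 0.85.

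Il12rb1, the chain shared by the IL-12 and IL-23 receptors, was at 3.75 through 25.9 to 27.4 CPM in young libraries. In middle-aged libraries it was at 13.8 and 30.2 CPM in males and 16.3, 43.1 and 29.7 CPM in females, and 3 of these were above every young library. The log2 fold change was 0.40 with a 95% interval of -0.74 to 1.55. It was 0.14 without young female 1 and -0.05 in the 9 libraries with over 10000000 counts. Among libraries of the same number the mean log2 CPM was higher in middle-aged mice by 1.47 (number 1), 0.47 (number 2) and 0.14 (number 3). Il12rb2, the signalling chain of the IL-12 receptor, was at 2.503 through 7.88 to 16.7 CPM in young libraries, and at 5.23 and 5.78 CPM in middle-aged males and 9.43, 10.3 and 11.2 CPM in females. Its log2 fold change was -0.13 with a 95% interval of -1.23 to 0.96. The log2 ratio of Il12rb2 to Il12rb1 was -1.06 ± 0.86 in young and -1.59 ± 0.62 in middle-aged libraries (SD, exact permutation p = 0.284).

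**Figure D3:**
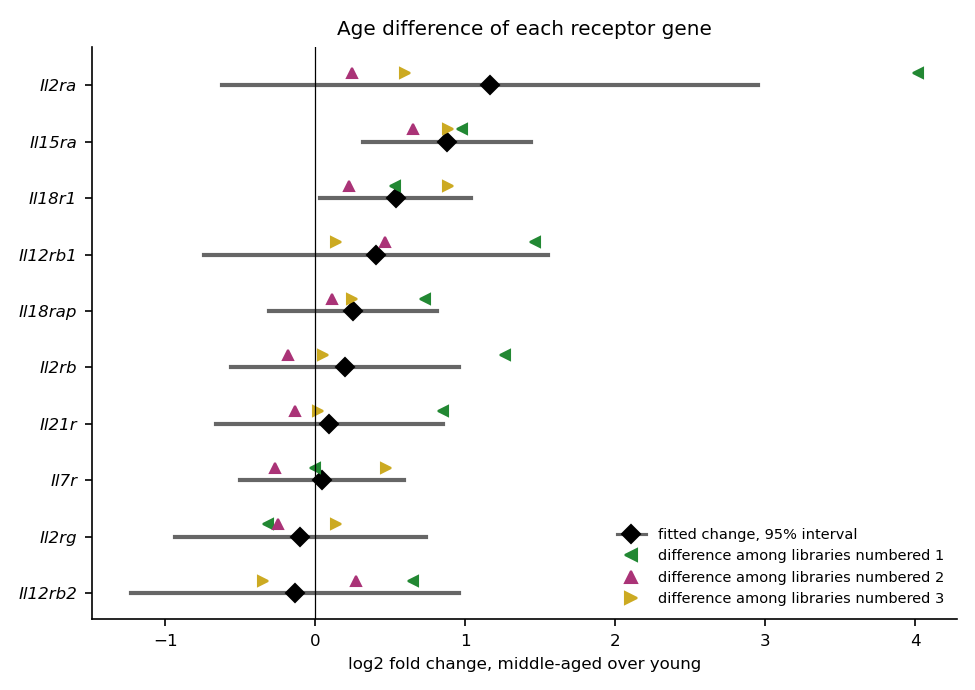
Fitted log2 fold change of each receptor gene, middle-aged over young, with its 95% interval, and the difference in mean log2 CPM among the libraries of each replicate number. The interval is above 0 for Il15ra (0.32 to 1.44) and Il18r1 (0.04 to 1.04). Of the replicate numbers, number 1 lies farthest right for Il2ra, Il12rb1, Il2rb, Il15ra, Il21r, Il18rap and Il12rb2.

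No difference between the sexes was detected in these genes. None of the 10 was called between males and females, where 0.0381% of all genes were, and none had an interaction of age with sex, where 0.00% of genes were called. At an unadjusted p under 0.05 the edgeR fits counted 0 members for either term, and 99 genes in all for sex and 158 for the interaction.

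Between replicate numbers 3 of the 10 members were called, beside the 26.3% of all genes. Il2rg was highest in libraries numbered 1, at 1044 to 2269 CPM, against 698 to 902 CPM in those numbered 2 and 561 to 624 CPM in those numbered 3 (edgeR adjusted p = 0.00709). Il12rb1 went the other way, with 3.75 to 16.3 CPM in libraries numbered 1 against 24.8 to 43.1 CPM and 26.9 to 29.7 CPM (adjusted p = 0.0102). Il21r was also lowest in libraries numbered 1, at 127 to 328 CPM against 359 to 465 CPM and 389 to 438 CPM (adjusted p = 0.0184). For all 3 genes the libraries numbered 1 did not overlap with the rest, at both ages and in both sexes. These 3 were picked by the test for number, and the share of all genes with such a separation was not computed. Il2rb had 552 to 2094 CPM in libraries numbered 1 and 1956 to 2625 CPM in the others, and was not called (adjusted p = 0.184).

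Gene length moved with the same numbers. The median log2 difference of number 3 from number 1 was -0.69 over the 4002 tested genes under 2.5 kb, 0.17 over the 2870 genes of 2.5 to 4 kb and 0.73 over the 6257 genes over 4 kb. Il2rg has a length of 2.39 kb in the file, Il21r of 3.32 kb and Il12rb1 of 4.11 kb. Their log2 differences of number 3 from number 1 were -1.28, 1.00 and 1.69. Il12rb2, with a length of 3.79 kb, had 1.17, so that Il21r and Il12rb2 were both above the 0.17 of their bin. The other members over 4 kb did not all follow their bin. Their log2 difference of number 3 from number 1 was 1.24 (Il2ra), 0.74 (Il2rb), 0.69 (Il18rap), 0.30 (Il7r), 0.23 (Il18r1) and -0.43 (Il15ra). The median change by age in the same bins was -0.04, 0.04 and 0.01. The part of transcript length in the differences between numbers was not tested.

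**Figure D4:**
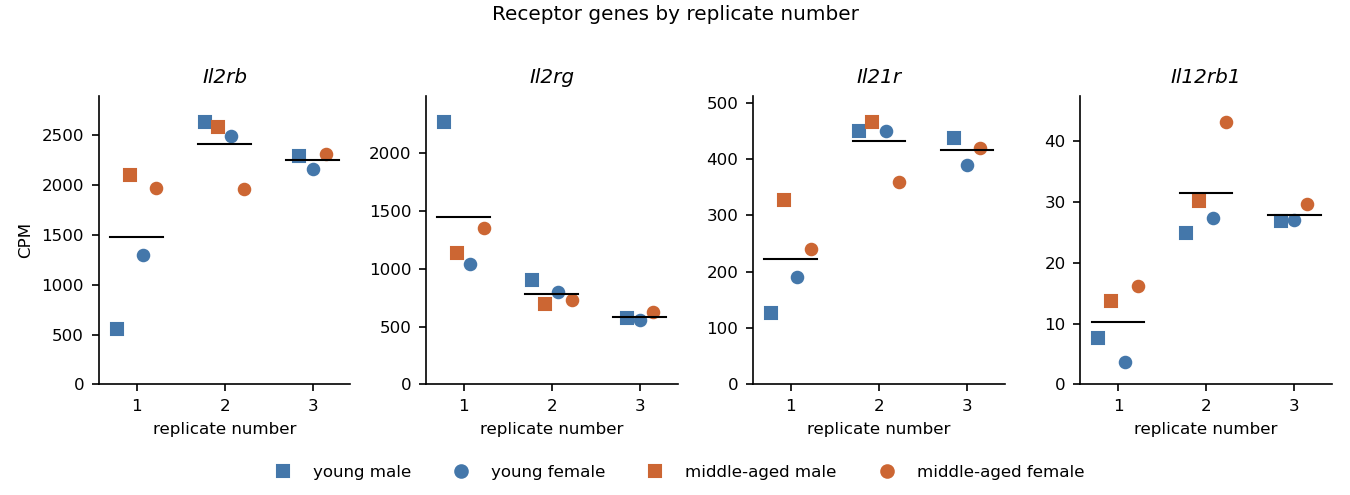
CPM of Il2rb, Il2rg, Il21r and Il12rb1 by replicate number (linear axes from 0), with the mean of each number as a line. For Il2rg the libraries numbered 1 (1044 to 2269 CPM) sit above all others, and for Il21r (127 to 328 CPM) and Il12rb1 (3.75 to 16.3 CPM) below all others.

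The genes around the receptors were taken from lists by role, and none of their members passed the adjusted threshold by age in the edgeR fit of sex and age without a replicate block. Of 12 tested genes that IL-2 or IL-15 signals are known to raise, all 12 had a fold change above 0 (median log2 0.28), and 4 had an unadjusted p under 0.05, beside 50.4% of all genes above 0 and the 2.00% higher at that p. The smallest of the 12, Gzmb (granzyme B), had a log2 fold change of 0.0029. This list, like the others, was chosen with earlier results of these data known, and its genes share the same libraries. Its counts are therefore a description and not an independent test. Fold changes in the deeper libraries alone are not given for this list. Pim2, a survival kinase, was at 258 through 343 to 413 CPM in young libraries, and at 724 and 530 CPM in middle-aged males and 791, 501 and 511 CPM in middle-aged females. All middle-aged libraries were above all young ones, with a log2 fold change of 0.89 ± 0.21 (SE), an unadjusted p of 0.00103 and an adjusted p of 0.334 (edgeR). Bcl2, which blocks mitochondrial cell death, was also separate, at 218 to 301 CPM in young and 313 to 436 CPM in middle-aged libraries (log2 fold change 0.48, unadjusted p = 0.0227, adjusted p that rounds to 1.00). Ccnd3, a G1 cyclin, had a log2 fold change of 0.52, and its groups overlapped at 349 to 510 and 484 to 752 CPM. The last of the 4 was Bcl2l1, a relative of Bcl2 named after its value was seen, with a log2 fold change of 0.41.

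Of 15 genes for brakes on cytokine signalling, Socs3 and Socs1 had an unadjusted p under 0.05, both higher in middle-aged mice, and the list's median was 0.07. Socs3, which STAT proteins induce and which blocks Janus kinases, was at 56.2 to 117 CPM in young libraries, and at 159 and 225 CPM in middle-aged males and 107, 191 and 202 CPM in middle-aged females. Its groups met only at middle-aged female 1, and the log2 fold change was 1.09 ± 0.24 (SE, unadjusted p = 0.000783, adjusted p = 0.321, edgeR). Socs1, the brake on the gamma chain cytokines and interferons, was at 75.5 to 158 CPM in young and 93.5 to 269 CPM in middle-aged libraries, with a log2 fold change of 0.85 (unadjusted p = 0.0194).

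Of 12 transcription factor genes that are known to control the receptor genes or the cells that carry them, 1 had an unadjusted p under 0.05. Id2, which holds back E proteins in effector T cells and NK cells, was at 186 to 264 CPM in young libraries, and at 497 and 295 CPM in middle-aged males and 582, 535 and 413 CPM in middle-aged females. The groups did not overlap, and the log2 fold change was 1.03 ± 0.21 (SE, unadjusted p = 0.000362, adjusted p = 0.228, edgeR). The list held 6 genes above 0 and 6 below (median log2 0.12). Ets1 and Tcf7, the genes of this list with the highest CPM, had log2 fold changes of -0.29 and -0.14. The T-box factors Eomes and Tbx21, named after their values were seen, had log2 fold changes of 0.61 (unadjusted p = 0.0743) and 0.45 (unadjusted p = 0.194, edgeR).

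The Janus kinases and STATs, which every IL-2, IL-7, IL-12, IL-15 and IL-21 receptor uses, held no gene with an unadjusted p under 0.05 among 11 (8 below 0, median -0.11). Jak1 and Stat3 had log2 fold changes of -0.03 and 0.31. The IL-18 signal relay held none among 8, with Myd88 at 0.22 and Irak1 at 0.11, and the other genes of the IL-1 receptor family held none among 4, with Sigirr at -0.34 and Il1rap at 0.43. There was likewise none among 12 other receptor chains, where Ifngr1 and Il4ra were at -0.18 each. Nor was there any among 9 genes that IL-12 and IL-18 signals raise, where Irf1 was at 0.26 and Irf8 at -0.04. These counts held only without a replicate block. With a block shared by both sexes, Jak3 (log2 fold change 1.14) and Stat3 (0.47) were higher at that unadjusted threshold. So were 2 of the other receptor chains, 1 relay gene and 1 gene that IL-12 and IL-18 signals raise. Sigirr (-0.37) was lower. None of them was called, and 5.69% of all genes were higher and 3.18% lower in that fit.

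Of the 8 ligand genes 5 could be tested. The IL-7 gene Il7 had 2 counts in the 6 young libraries, all in young female 3, and 12 to 39 counts in each middle-aged library, and the ratio of the summed levels was 48.8 with a 95% counting interval of 13.2 to 408 (exact binomial). That interval covers counting error only and leaves out the spread between libraries. For Il7 the unadjusted p was 0.000199 and the adjusted p 0.197 (edgeR), and its levels of 0.543 to 2.07 CPM in middle-aged libraries were low. Il15 and Il18 were also low, at 0 to 6.15 and 0 to 2.82 CPM in young libraries and at 0.847 to 2.72 and 0.142 to 2.63 CPM in middle-aged libraries.

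**Figure D5:**
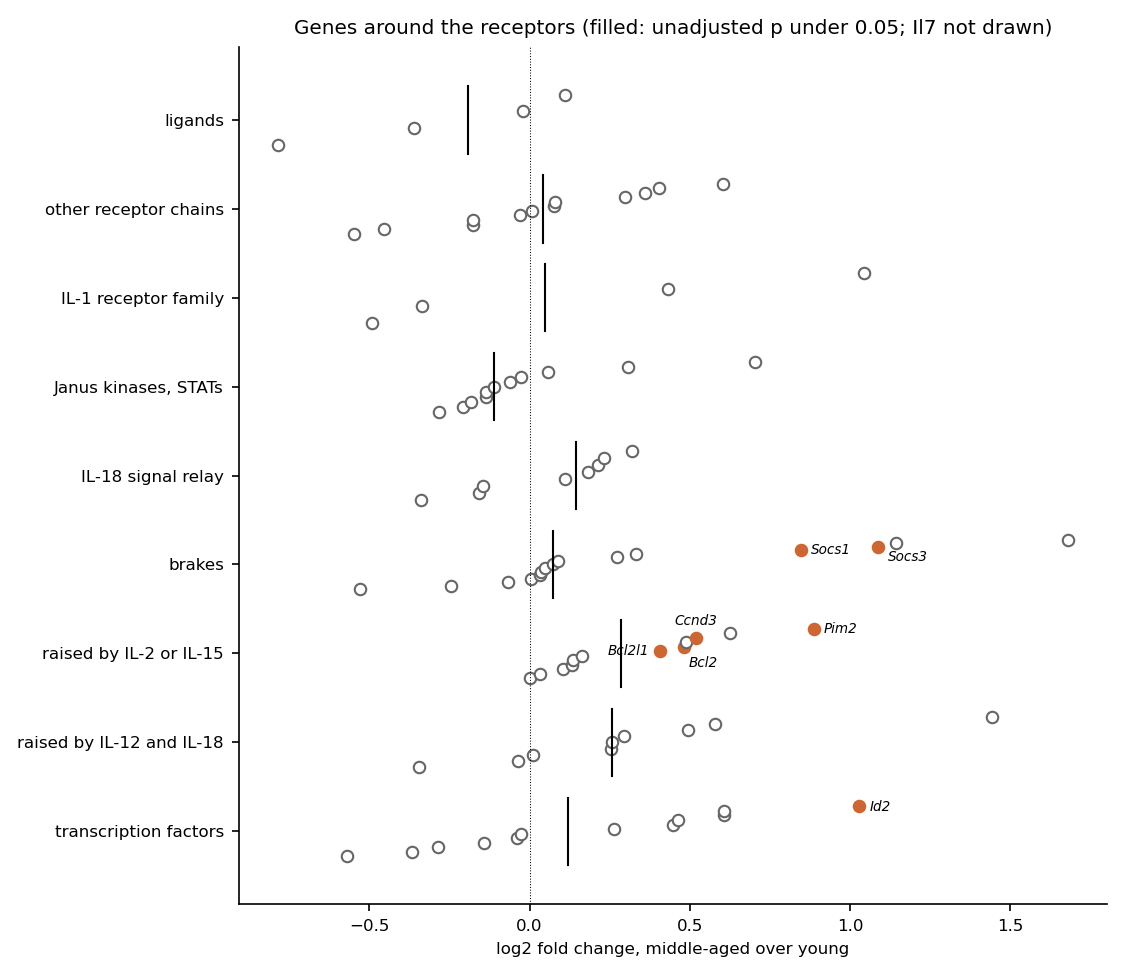
Log2 fold change by age of the tested genes of each list, with the list's median as a line and genes with an unadjusted p under 0.05 filled and named. All filled genes lie to the right of 0, with Socs3 (1.09), Id2 (1.03) and Pim2 (0.89) farthest, and Il7 is left out because its young libraries held 2 counts.

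Lists of marker genes for other cells moved with age beside these differences. The summed level of 12 NK cell genes was lower in middle-aged mice, at 533 to 1274 CPM against 855 to 1570 CPM (log2 -0.67, exact permutation p = 0.0433). Of these genes 6 had an unadjusted p under 0.05, all lower, and Klrb1b was at 0 in 2 libraries. NK cells carry CD122, Ly49 and IL-18 receptors too. The list does not stand for every NK receptor gene, and its sum does not measure NK cells alone. It holds Klra4, Klra8 and Klra9 of the Ly49 family, and Prf1, which is also on the list of genes that IL-2 or IL-15 signals raise. Whether its fall lay in NK cells or in the CD8+ Tregs was not tested. Klrk1 and Klrc1, which T cells also express and which were named after their values were seen, had log2 fold changes of 1.85 (unadjusted p = 0.000144, adjusted p = 0.168, edgeR) and 1.43 (unadjusted p = 0.00122, adjusted p = 0.344). The summed level of 10 myeloid genes was higher, at 157 to 341 CPM in 4 middle-aged libraries and 2705 CPM in female 2 against 52.4 to 225 CPM (exact permutation p = 0.0433), and that of 6 plasma cell genes was also higher, at 116 to 368 CPM against 88.1 to 133 CPM (exact permutation p = 0.0152). The sum of 8 red cell and platelet genes was lower, at 0.998 to 37.1 CPM against 24.8 to 136 CPM (exact permutation p = 0.039). Of the myeloid genes 3 had an unadjusted p under 0.05, all higher, and 3 of the red cell and platelet genes, all lower. Of 8 naive T cell genes 3 were also lower at that p, namely Lef1 (log2 fold change -0.47), Dapl1 (-1.11) and Actn1 (-1.06), as was Izumo1r (-1.46) of 8 CD4 T cell genes. The sum of the CD8 T cell genes had a log2 difference of -0.12 (exact permutation p = 0.645), and the sums of the 6 further lists, naive and CD4 T cells among them, had p-values of 0.145 to 0.524. When each library was scaled to its CD8 T cell genes, the log2 difference of Il15ra was 1.01, with the smallest permutation p this design allows (exact, 0.00216), and that of Il18r1 was 0.59 (p = 0.102, exact). The CD8 sum itself moved with replicate number, so the scaled values carry that difference too. It was 6973 to 10842 CPM in libraries numbered 1, 5351 to 7182 CPM in those numbered 2 and 4770 to 5030 CPM in those numbered 3. The part of other cells in the receptor differences was not tested, and in bulk RNA fewer cells of a type and less RNA per cell cannot be told apart.

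The genes whose log2 CPM followed a member most closely over the 11 libraries were found for Il2rb and the 3 members with the smallest p by age. For Il2rb they were Parp16 (Pearson r = 0.99), 2510039O18Rik (0.98) and Ncdn (0.98). Il15ra was followed by Klf10 (0.89), Susd3 (0.89) and Glrx (0.88), and Il18r1 by Ripk4 (0.88), Gpr15 (0.85) and Armc7 (0.84), of which Ripk4 had a mean of only 0.920 CPM. For Il2ra they were Rnf215 (0.97), Dynlt3 (0.96) and Muc1 (0.96). These are the highest of 13129 coefficients each, and the points share library depth and replicate number, so they describe these libraries only.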

How the data were processed

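RNA from sorted cells was made into libraries with a SMARTer kit and sequenced commercially. The authors deposited counts, as whole numbers of reads per Ensembl gene without normalization, at GRCm38 coordinates. The submitters' processing notes name kallisto and mm10 with no role. The counter, strandedness and treatment of shared reads were not given in the sources used here. Gene length is the deposited value in bases. There were 0 unused sample columns.

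Counts were tested with edgeR 4.0.16 (R 4.3.3, limma 3.58.1): filterByExpr on age (minimum count 10, total 15), TMM factors, robust quasi-likelihood fits on sex and age, and Benjamini-Hochberg adjustment over 13129 genes at 0.05. Log2 CPM used a prior count of 2, and exact permutation tests were 2-sided. Replicate number was tested as a 3-level factor with sex and age in the model. Steps were tested on simulated data. Alternatives were other normalizations, filters, DESeq2 1.42.0, limma voom, a replicate block and left-out libraries. Named were all members, and from each list genes with an unadjusted p under 0.05 (up to 3) and, where fewer than 2 qualified, its 2 highest genes, as well as 3 genes most like each of 4 members. Members and lists were chosen with earlier results of these data known, and the tests by replicate number, the 9 deeper libraries and the 7 libraries not numbered 1 after seeing the data.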

Additional observations from a re-analysis of the deposited data

Results flagged for a closer look

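In 20 groups of 5 or 6 libraries looked at (10 genes at each age), 2 libraries stood far from the rest of their age group by Dixon's criterion, where chance gives about 1 in 20. Il2rg in young male 1 was at 2269 CPM, while the other 5 young libraries were at 561 to 1044 CPM, and this library also had the fewest counts and the lowest Il2rb. Il18r1 in young male 3 was at 63.9 CPM, while the other 5 young libraries were at 48.5 to 53.7 CPM.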

How the results depend on the processing

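The count of members called by age stayed at 0 in 24 of 25 alternatives and was 1 (Il15ra, adjusted p = 0.0408) with limma voom and sample quality weights. DESeq2 gave Il15ra an adjusted p of 0.051, and its range over all alternatives was 0.0408 to 1.00. The fold changes of Il15ra, Il18r1, Il18rap and Il2ra were above 0 in every alternative run. That of Il2rb was below 0 in 2 of 25, Il12rb1 in 1, Il7r in 3 and Il21r in 6, and those of Il2rg and Il12rb2 were above 0 in 5 and 6. Members called by sex and by the interaction stayed at 0 in all runs. Sex with the block within sex could not be fitted. Members called by replicate number were 3 or 4 under other normalizations and 2 to 4 with each library left out, and the 2 came without young female 1.

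All genes called by age, 3 with edgeR, numbered 17 with at least 1 count in any library, 5 with at least 10 in every library, 112 with DESeq2, 138 with limma voom, 5 without the sex term, 0 in males alone, 0 in females alone, 6 in the 9 deeper libraries and 1 to 4 with each library left out. The count fell to 1 without young male 2, young female 2, young female 3, middle-aged female 1 or middle-aged female 3. At unadjusted p under 0.05 males alone gave 0 members, with 0.794% of genes higher and 0.691% lower, and females alone 0, with 1.39% and 0.701%.

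Members with an exact permutation p under 0.05, 2 at first, numbered 1 with median-of-ratios factors, upper-quartile factors, library size alone or the ratio to CD8 T cell genes, 1 in the 9 deeper libraries, 1 in the 7 libraries not numbered 1 and 1 to 3 with each library left out. It fell to 1 without young male 1, young male 2, young female 1, middle-aged male 1, middle-aged female 1 or middle-aged female 3, and Il15ra stayed under 0.05 in all 11 of these runs. The member that passed was Il12rb1 in the 7 libraries (p = 0.0286, exact, where Il15ra had 0.0571) and Il15ra in the 9. No log2 ratio between members passed 0.05 in any alternative.

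Libraries of the same number shared no stated origin. Their deviations from group means correlated at 0.0250 to 0.558 between groups (median 0.353, 13 of 15 pairs over 0.1). Pairs of different numbers correlated at -0.508 to 0.397 (median -0.186, 8 of 30 over 0.1). Deviations within a group sum to 0, so same and different numbers are not independent of each other. On average 8 of 11 libraries correlated best with their own number. With a replicate block shared by both sexes, 19 genes and 0 members were called by age, and 4 members had an unadjusted p under 0.05, all higher (Il15ra 0.00334, Il18r1 0.0159, Il12rb1 0.0337, Il18rap 0.0484), beside 5.69% of genes. Of the genes in the lists around the receptors Id2 was then called (adjusted p = 0.0445). In the same fit Eomes and Tbx21 had unadjusted p-values of 0.0012 and 0.00635, and Gzmb a log2 fold change of -0.16. With labels permuted within numbers, 4 members had an exact p under 0.05 (Il15ra and Il12rb1 0.00926, Il18r1 and Il2ra 0.0463). That permutation was run on the members alone, so no share over all genes stands beside the count, which says nothing particular about these genes. With the replicate block within sex 2 genes and 0 members were called. Depth limits Il2ra most, whose count reached 77 at best.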
